A study of Mus musculus with 9 samples.

Results

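The genes of cellular iron uptake, storage and sensing were followed in a mouse acute myeloid leukaemia driven by the fusion gene MLL-AF9, with and without Ezh2, the histone methyltransferase of Polycomb repressive complex 2. The set named 9 genes (Hfe, Tfrc, Tfr2, Slc11a2, Slc40a1, Fth1, Ireb2, Aco1 and Ciapin1) and took every probe set whose symbol in the deposited annotation equalled one of them. This gave 8 genes with 23 probe sets, of 20680 genes and 37831 probe sets that named a single gene. The symbol Tfr2 was not in the annotation. The members were chosen by function and with knowledge of their intensity difference between Ezh2-null and WT on these same arrays, so that difference is described here by values per array and errors, without p-values.

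Both groups were leukaemias in irradiated C57B/6 secondary recipients, carried a retrovirus with MLL-AF9 and GFP, had received pIpC in the first recipients to switch on Cre, and were sorted from bone marrow for viable cells positive for GFP and for YFP, the sign of Cre activity. They differed by genotype, WT (4 arrays) or Ezh2-null (5 arrays). The sources used here do not name the Cre line, the age of the mice or the primary leukaemia behind each sample, and the spread between arrays may therefore not be that between independent leukaemias. One array was hybridised per sample, and their number limits the precision of every value.

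Ezh2 averaged 10.50 ± 0.49 (log2 intensity, SD) in the 4 WT arrays and 9.21 ± 0.18 (SD) in the 5 Ezh2-null arrays, without overlap. Median intensity over all probe sets was 147.8 to 157.5 per array. Among markers of the sorted cells, the leukocyte gene Ptprc read 12.00 to 12.70 and the MLL-fusion target Hoxa9 11.01 to 12.15 on the log2 scale over the 9 arrays, while the T cell gene Cd3e did not exceed 6.91. Other markers of the same lists were less even. Cd34 read 6.14 to 8.93 in WT and 9.23 to 10.29 in Ezh2-null arrays, and Flt3 6.64 to 11.02 and 7.41 to 10.74. Of the 15 leukaemia markers listed, 10 had a higher mean in Ezh2-null arrays and 5 a lower one. The lymphoid marker Nkg7 read 7.60 to 9.19 in WT and 9.09 to 9.92 in Ezh2-null arrays. WT replicates 3 and 4 stood apart from the other arrays. Their mean deviation over 18 neutrophil maturation genes was -1.18 and -0.80 on the log2 scale. WT replicates 1 and 2 stood at 0.10 and 0.20, and the Ezh2-null arrays ran from -0.16 to 0.66. Elane, Mpo, Prtn3 and Ctsg of that list went the other way, with WT replicates 3 and 4 the highest of all arrays. Between genotypes, 15 of the 18 genes had a higher mean in Ezh2-null arrays. The median difference was 0.79, or 0.11 without WT replicates 3 and 4. Differences of the members, and of other genes where they moved, are therefore given with and without those 2 arrays. In bulk samples, fewer cells of a type and less RNA per cell cannot be told apart.

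Cells take up iron mainly as transferrin, which binds the transferrin receptor encoded by Tfrc and is carried into endosomes, from where the divalent metal transporter encoded by Slc11a2 moves iron into the cytosol. Surplus iron is stored in ferritin, whose heavy chain is the product of Fth1, or leaves through ferroportin, the product of Slc40a1. The iron regulatory proteins encoded by Aco1 and Ireb2 bind hairpins in messenger RNAs when iron is scarce, which stabilises the Tfrc message and blocks translation of ferritin. Hfe encodes a relative of MHC class I proteins that binds the transferrin receptor, and Ciapin1 encodes anamorsin, which acts early in cytosolic iron-sulphur cluster assembly.

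By their brightest probe sets, all Ezh2-null values of Tfrc, Hfe and Ciapin1 lay below all WT values, while the genes for iron storage, export and endosomal transport overlapped between the genotypes. The set was chosen with this contrast known, so its counts of calls in limma (adjusted p under 0.05 by the Benjamini-Hochberg method) are a description and support nothing. They were 3 of the 8 genes, where 0.498% of all genes passed, 0.208% passed and were lower, and 2.87% were lower without overlap. By probe set, 6 of 23 passed, against 0.447% of all probe sets, and these 6 were lower, against 0.198%. Without overlap and lower were 8 of 23, against 2.80%. The median difference, Ezh2-null minus WT, was -0.58 on the log2 scale over the 8 genes and 0.02 over all genes.

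**Figure D1:**
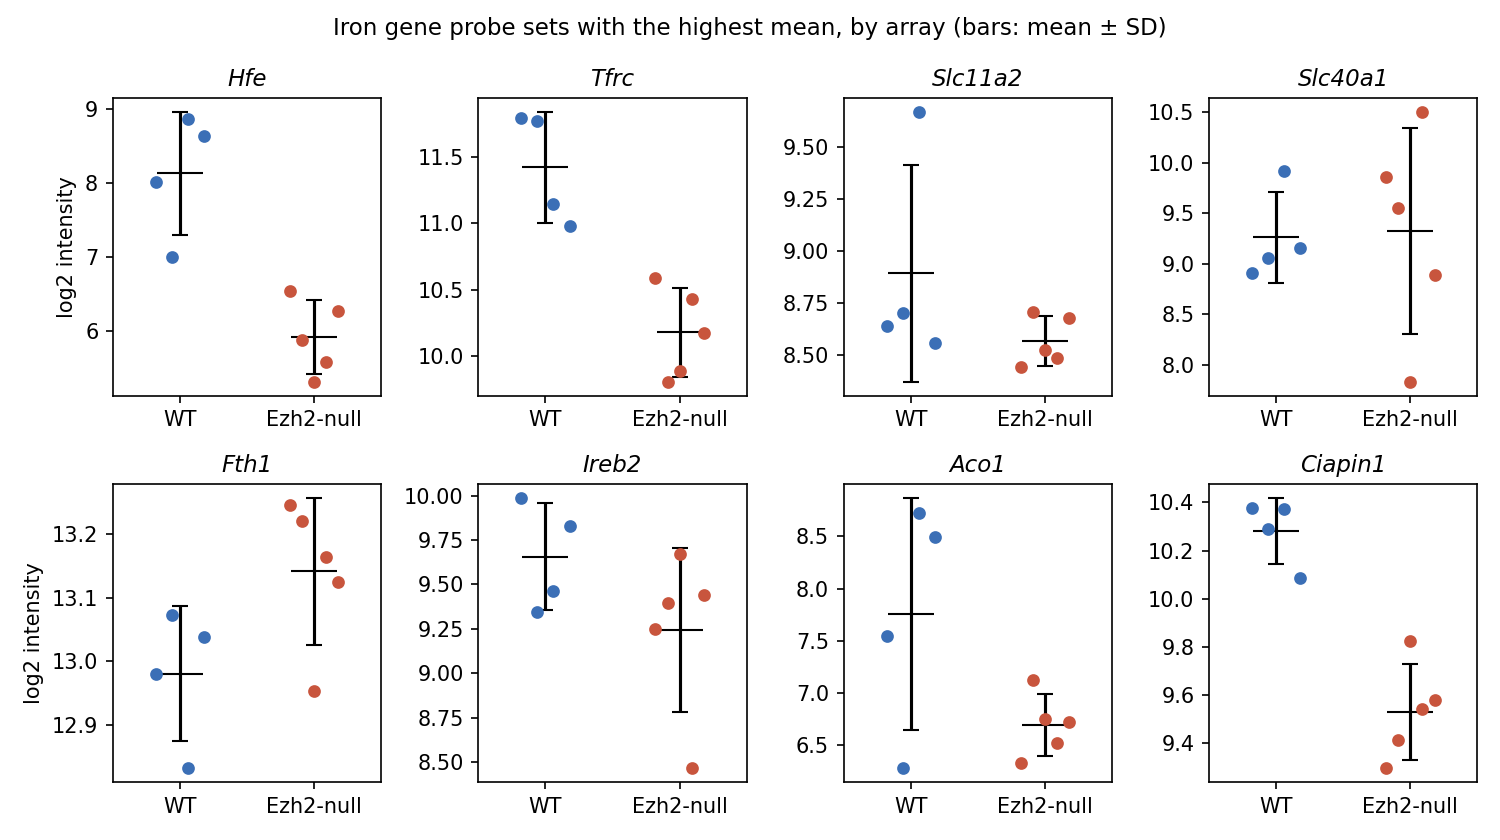
Log2 intensity of the brightest probe set of each of the 8 iron genes, with 1 point per array (4 WT, 5 Ezh2-null) and bars for mean ± SD; each panel has its own axis. Points of Hfe, Tfrc and Ciapin1 separate by genotype, whereas those of Slc11a2, Slc40a1, Fth1, Ireb2 and Aco1 overlap.

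Tfrc, the receptor through which dividing cells import iron, was lower in Ezh2-null leukaemia on all 6 of its probe sets. The brightest of them (1452661_at) read 11.80, 11.77, 11.15 and 10.98 on WT replicates 1 to 4 and 10.59, 9.80, 9.89, 10.43 and 10.17 on Ezh2-null replicates 1 to 5 (log2 intensity). Every Ezh2-null array lay below the lowest WT array, and WT replicates 1 and 2 were the highest. The difference was -1.25 (SE 0.23), which left 42.1% of the WT level.

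The array carries 3 further probe sets of Tfrc among its control probe sets, which by their names target the 5′, middle and 3′ parts of the message. The 5′ one read 10.69, 10.32, 10.38 and 10.02 in WT and 9.23, 8.76, 9.16, 8.75 and 9.02 in Ezh2-null arrays (log2 intensity). The middle one read 9.089, 9.002, 9.200 and 9.012 in WT and 8.15, 7.46, 7.85, 7.93 and 7.83 in Ezh2-null arrays. Both separated the genotypes with a gap wider than the range of the WT arrays.

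The 3 parts gave differences of similar size. They were -1.36 (SE 0.16) for the 5′ part, -1.23 (SE 0.14) for the middle part and -1.09 (SE 0.18) for the 3′ part (log2). The remaining Tfrc probe sets stood at -1.02 (SE 0.16, 1422967_a_at) and -1.17 (SE 0.24, 1422966_a_at). The reduction was thus between 2.03-fold and 2.57-fold on all 6, which target 1 gene and are not independent of each other.

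Leaving out WT replicates 3 and 4 enlarged the difference on 5 of the 6 Tfrc probe sets, the exception being the middle control probe set, which went from -1.23 to -1.20. The 6 differences then ran from -1.61 to -1.09, and the brightest probe set had the largest difference, -1.61 (log2). Markers of erythroid cells, which carry much transferrin receptor, were mostly dim in both genotypes, with summed intensities over 12 measured of 15 listed markers of 994 to 1455 in WT and 1039 to 1301 in Ezh2-null arrays. None of the 12 passed limma and none had an unadjusted p under 0.05, a mark reached by 17.2% of all genes. The alpha globin gene Hba-a1 read no higher than 6.42 on the log2 scale on any array. The erythroid factor gene Klf1 read 8.55 on WT replicate 1, 6.68 to 6.95 on the other WT arrays and 6.96 to 7.60 in Ezh2-null arrays. Mean deviations over the 12 markers were 0.21, 0.05, -0.13 and -0.17 on WT replicates 1 to 4 (log2). In Ezh2-null arrays they ran from -0.08 to 0.17. The part of erythroid cells in the difference of Tfrc was not tested.

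The mitosis genes also had lower mean values in Ezh2-null arrays. All 20 measured had a negative difference, with a median of -0.55 (log2). Of them, 14 had an unadjusted p under 0.05 in limma, against 17.2% of all genes. The genotypes did not overlap on 8, where 2.87% of all genes were lower without overlap. After adjustment 1 passed limma, the spindle checkpoint kinase gene Bub1 (-1.15, SE 0.19, adjusted p = 0.0373). Without WT replicates 3 and 4 the median was -0.30, and the difference of the brightest Tfrc probe set was -1.61. Within WT the mitosis genes had mean deviations of 0.12 and 0.08 on replicates 1 and 2 and of 0.49 and 0.47 on replicates 3 and 4 (log2). The brightest Tfrc probe set was higher on replicates 1 and 2, but its other probe sets did not all share that order. The middle control was highest on WT replicate 3 (9.20), and 1422966_a_at read 9.60 on WT replicate 4 against 8.91 on WT replicate 2. The summed intensity of the mitosis genes was 36889 to 44486 in WT and 26726 to 34486 in Ezh2-null arrays, without overlap. Their part in the difference of Tfrc was not tested.

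In the RefSeq promoter table (GRCm38.p6), which held 11 windows for 7 of the 9 named genes, the window before the downstream Tfrc start contained both ACGTG, the core of hypoxia-response elements, and TGACGT, a letter run of cyclic AMP response elements. These motifs were chosen after the values were seen, and the stretch is shown because Tfrc is the member on which all probe sets separated the genotypes. The stretch spans the upstream Tfrc start at 32608896, so the window before that start ends within it. The stretch lies on the plus strand at chr16:32608892-32608916, from 230 to 206 bases before the start at 32609122, with both motifs in capitals.
Tfrc: gtACGTGcggaaggaagTGACGTag
Among 32851 promoters, the 250 bases before the start held ACGTG in 16.57% and TGACGT in 6.47% on either strand, and both on the given strand in 1.34%. Of the 8 windows of genes with measured probe sets, the other 7 held neither motif. These 7 included the upstream Tfrc window, which ends within the stretch. None of the 8 windows, the downstream Tfrc window included, held CACGTG, the E-box bound by Myc, which 6.02% of promoters held. For the 7 this follows from the lack of ACGTG, which CACGTG contains. The hairpin loop bound by iron regulatory proteins was searched for by its loop letters in the 50 bases after the start. It was in 0 of these 8 windows on either strand, and in 1.58% of all on the given strand or 3.57% on either. Slc40a1 and Slc11a2 had no window. A hairpin elsewhere in the message lies outside this search, which therefore cannot show that any of these genes lacks one. A match is a description of letters and says nothing about binding.

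Hfe, whose protein binds the transferrin receptor and lowers its affinity for transferrin, had the largest difference among the 8 genes, on a dim probe set (1422645_at). It read 8.02, 7.01, 8.88 and 8.64 on WT replicates 1 to 4 and 6.54, 5.88, 5.30, 5.57 and 6.27 on Ezh2-null replicates 1 to 5 (log2 intensity). WT replicates 3 and 4 were the highest and WT replicate 2 lay 0.47 above the highest Ezh2-null array. The difference was -2.22 (SE 0.38), or 4.67-fold lower.

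In linear intensity the same probe set ran from 129 to 470 in WT and from 39.5 to 93.0 in Ezh2-null arrays. No detection calls were available, so how much of the Ezh2-null signal is background was not tested. The second probe set of Hfe (1450702_at) read 5.98, 5.79, 6.54 and 6.56 in WT and 5.82, 5.67, 5.76, 5.77 and 6.19 in Ezh2-null arrays. The genotypes overlapped on it, with a difference of -0.38 (SE 0.19).

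The size of the Hfe difference depended on WT replicates 3 and 4, which were the highest on both probe sets. Without them it was -1.60 on the brighter probe set and -0.05 on the other (log2). B2m, the light chain that Hfe needs to reach the cell surface, was bright, at 13.63 ± 0.21 (log2, SD) in the 4 WT arrays and 13.60 ± 0.14 (SD) in the 5 Ezh2-null arrays (limma adjusted p = 0.951). Its difference was -0.02, and -0.18 without WT replicates 3 and 4.

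**Figure D2:**
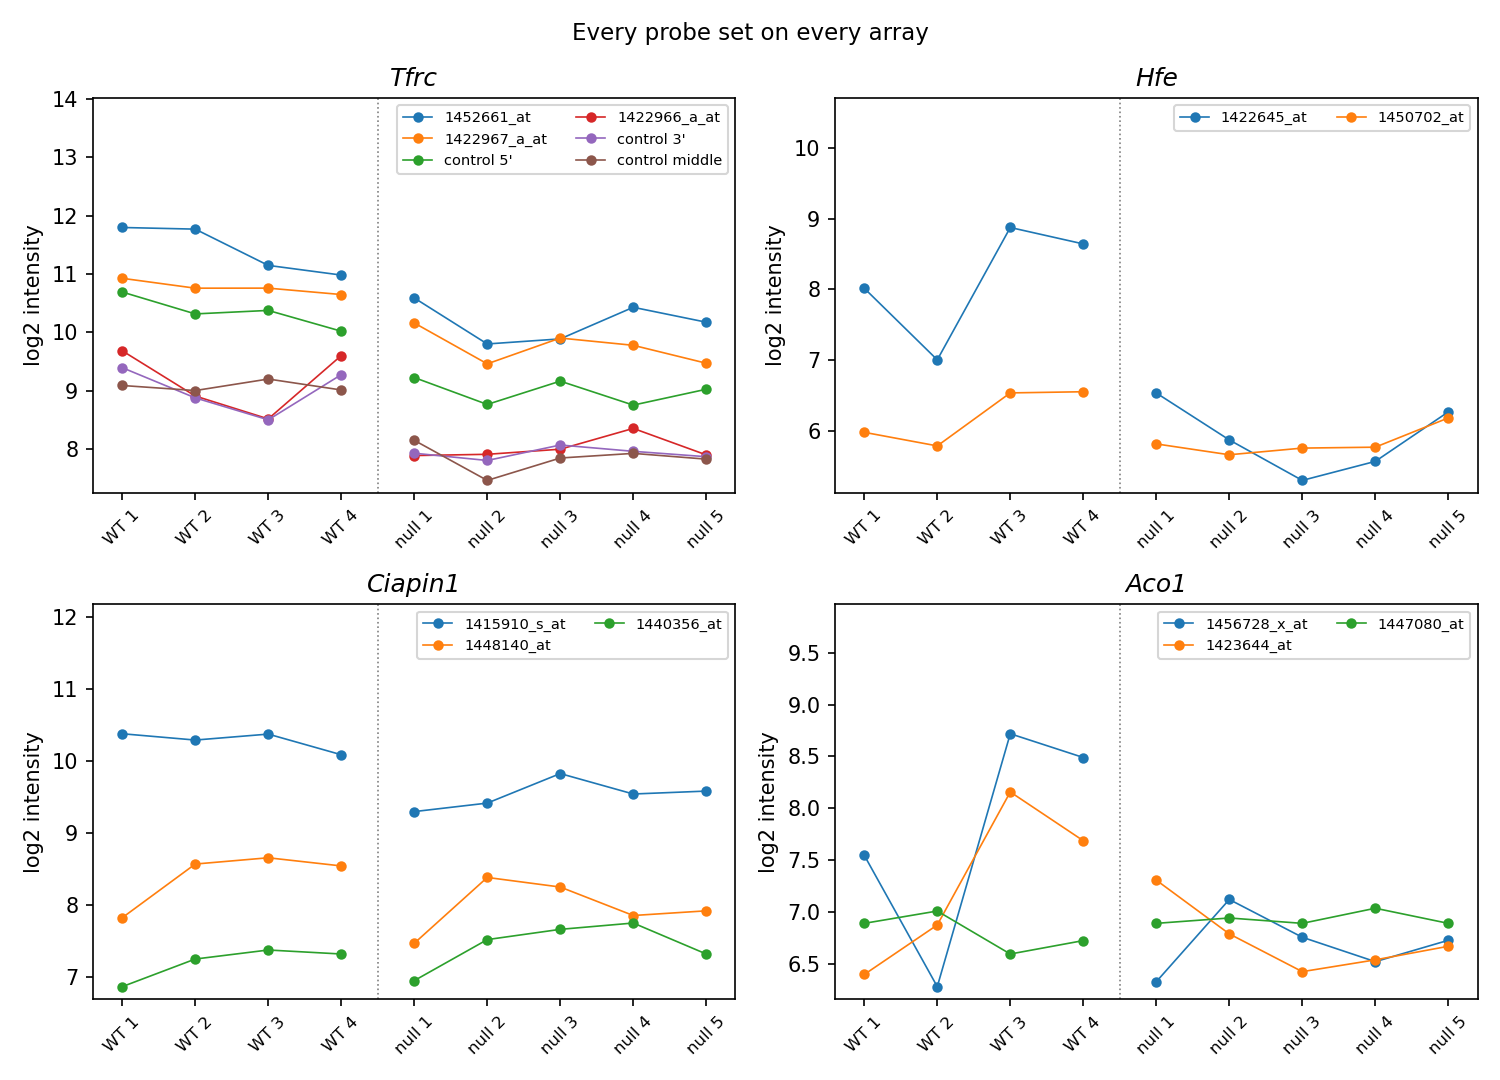
Log2 intensity of every probe set of Tfrc, Hfe, Ciapin1 and Aco1 on each of the 9 arrays, with 1 line per probe set and WT left of the dotted line; arrays have no order and lines only join points of a probe set. All 6 lines of Tfrc step down in Ezh2-null arrays, whereas 2 lines of Aco1 and both of Hfe peak on WT replicates 3 and 4.

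Ciapin1 was lower without overlap on its brightest probe set only. That probe set (1415910_s_at) read 10.38, 10.29, 10.37 and 10.09 in WT and 9.30, 9.41, 9.82, 9.54 and 9.58 in Ezh2-null arrays (log2 intensity), a difference of -0.75 (SE 0.13) that was -0.80 without WT replicates 3 and 4. The genotypes were separated by 0.26. The other probe sets overlapped and pointed in different directions, at -0.42 (SE 0.22, 1448140_at) and 0.24 (SE 0.18, 1440356_at), or -0.22 and 0.38 without those 2 arrays, so the separation for Ciapin1 rests on 1 of its 3 probe sets.

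The genes for the iron regulatory proteins did not separate the genotypes. Ireb2 had a single probe set, which read 9.99, 9.35, 9.46 and 9.83 in WT and 9.25, 9.40, 9.67, 8.46 and 9.44 in Ezh2-null arrays (log2 intensity). The difference of -0.41 (SE 0.24) was -0.22 without Ezh2-null replicate 4, the lowest array, and -0.42 without WT replicates 3 and 4. For Aco1, whose protein is cytosolic aconitase when it holds an iron-sulphur cluster, the brightest probe set (1456728_x_at) read 7.55, 6.28, 8.72 and 8.49 in WT and 6.33, 7.12, 6.76, 6.52 and 6.73 in Ezh2-null arrays.

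WT replicates 3 and 4 were high for Aco1 and WT replicate 2 was below every Ezh2-null array. The difference of -1.07 (SE 0.43) was -0.22 without WT replicates 3 and 4 and -1.56 without WT replicate 2. A second probe set (1423644_at) was likewise highest on WT replicates 3 and 4, at 8.16 and 7.69, and its difference turned from -0.53 to 0.11 without them. The third (1447080_at) stood at 0.13 (SE 0.11), was lowest on those same arrays and stood at -0.02 without them.

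Fth1, the heavy chain of ferritin, was bright on every array and differed little. Its brightest probe set (1448771_a_at) read 12.98, 13.07, 12.83 and 13.04 in WT and 13.25, 13.22, 12.95, 13.16 and 13.13 in Ezh2-null arrays (log2 intensity), a difference of 0.16 (SE 0.11). Of the Ezh2-null arrays, 4 lay above all WT arrays and replicate 3 among them. The other probe set (1427021_s_at) stood at 0.14 (SE 0.16). Without WT replicates 3 and 4 the differences were 0.12 and 0.32. The ferritin light chain gene Ftl1, not a member of the set, averaged 11.83 ± 0.44 (log2, SD) in the 4 WT arrays and 11.996 ± 0.06 (SD) in the 5 Ezh2-null arrays (limma adjusted p = 0.677), a difference of 0.17 that was 0.55 without WT replicates 3 and 4.

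Slc40a1, the iron exporter ferroportin, varied within the Ezh2-null group by more than between genotypes. On the brighter probe set (1448566_at) Ezh2-null replicates 1 to 5 read 9.85, 9.55, 7.83, 10.50 and 8.89, against 8.90, 9.06, 9.92 and 9.16 in WT (log2 intensity). The other probe set (1417061_at) read 9.47, 9.18, 8.34, 9.70 and 8.75 in Ezh2-null and 8.07, 8.37, 8.95 and 8.71 in WT arrays. Both put the arrays in the same order within each genotype, with Ezh2-null replicate 4 highest and replicate 3 lowest.

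Across genotypes the Slc40a1 differences were 0.06 (SE 0.47) and 0.56 (SE 0.28), and 0.34 and 0.86 without WT replicates 3 and 4. On the brighter probe set the sign changed with single arrays, from -0.23 without Ezh2-null replicate 4 to 0.44 without Ezh2-null replicate 3. Markers of macrophages, cells with much ferroportin, had summed intensities of 5620 to 7047 in WT and 4719 to 5835 in Ezh2-null arrays over all 14 listed, and none passed limma, with 4 at an unadjusted p under 0.05. Of these 4, the scavenger receptor gene Cd163 stood at -1.99 (SE 0.58, adjusted p = 0.137) and the adhesion receptor gene Vcam1 at 2.37 (SE 0.91, adjusted p = 0.222), or -2.35 and 3.85 without WT replicates 3 and 4. Cd68 stood at -0.51 (SE 0.15, adjusted p = 0.144) and the dim C1qa at 0.38 (SE 0.13, adjusted p = 0.178), both without overlap. Without those 2 arrays they stood at -0.40 and 0.37. Over the 14 markers, 8 differences were positive and 6 negative. Their part in the spread of Slc40a1 was not tested.

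Slc11a2, the endosomal iron transporter, showed no common direction over its 4 probe sets. Differences were -0.33 (SE 0.22), -0.0045 (SE 0.27), 0.13 (SE 0.11) and -0.22 (SE 0.15) from the brightest to the dimmest (log2). Without WT replicates 3 and 4 they were -0.10, 0.35, 0.06 and -0.07. The brightest (1452078_a_at) read 8.64, 8.70, 9.67 and 8.56 in WT and 8.44, 8.71, 8.52, 8.49 and 8.68 in Ezh2-null arrays. WT replicate 3 alone stood out, and without it the difference was -0.07. The older symbol Trfr2, which the RefSeq gene table gives as a synonym of Tfr2, named 2 dim probe sets outside the set. Their log2 differences were -0.21 (SE 0.18, adjusted p = 0.607 in limma over all probe sets) and -0.36 (SE 0.18, adjusted p = 0.361). The second did not overlap, at 5.432 to 6.36 in WT and 5.30 to 5.410 in Ezh2-null arrays. WT replicate 1 was the highest array on both, at 7.76 and 6.36.

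**Figure D3:**
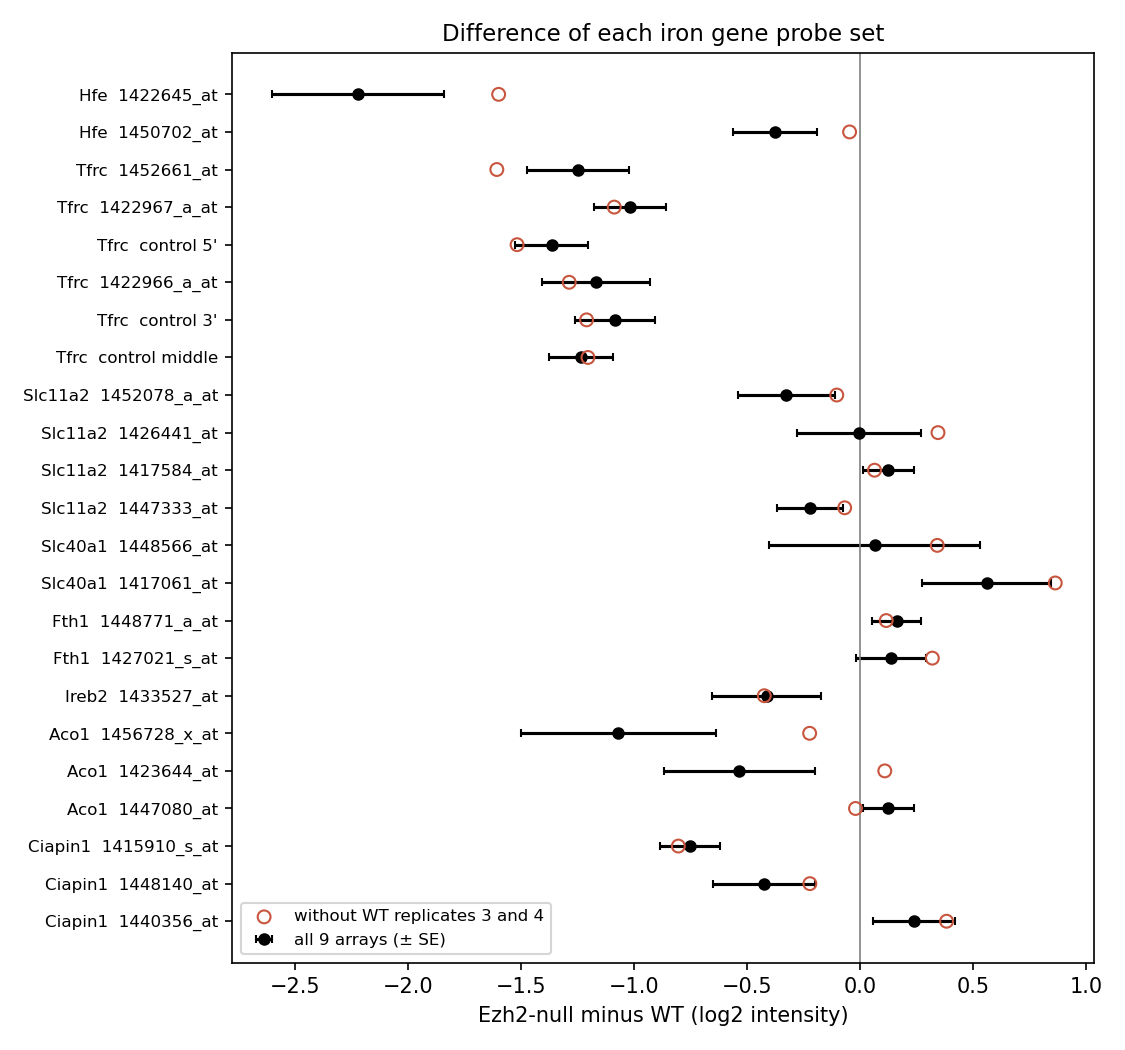
Difference of Ezh2-null minus WT (log2 intensity) for all 23 probe sets, as filled points with SE from limma over the 9 arrays and as open circles without WT replicates 3 and 4. The 6 Tfrc probe sets lie between -1.36 and -1.02 and stay at or below -1.09 without those arrays, while both Aco1 probe sets with the lowest values and the brighter Hfe probe set move toward 0.

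Of the other genes of iron handling, 60 measured of 64 listed in 3 groups, 1 passed limma. The count was 4 without WT replicate 2, 2 without Ezh2-null replicate 5, 1 without WT replicate 1 and 0 with WT replicate 3 or 4 or Ezh2-null replicate 1, 2, 3 or 4 left out, where 10 to 13 had an unadjusted p under 0.05 in limma. With all arrays, 14 of the 60 (23.3%) had an unadjusted p under 0.05, against 17.2% of all genes.

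Iron-sulphur cluster assembly genes had a median difference of -0.28 (log2), against 0.02 over all genes. Of 24 measured, 21 had a negative difference, 1 passed limma with a lower value and none passed with a higher one. In all, 8 had an unadjusted p under 0.05, each with a negative difference. The mitochondrial assembly factor gene Nubpl was chosen for mention after its values were seen. It read 9.57 to 10.31 in WT and 8.09 to 9.09 in Ezh2-null arrays, a difference of -1.13 (SE 0.21) that missed the threshold (limma adjusted p = 0.0567).

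The median of the group shrank to -0.07 without WT replicates 3 and 4, whose mean deviations of 0.39 and 0.40 were the highest of the 9 arrays. WT replicates 1 and 2 stood at -0.01 and -0.05, and Ezh2-null arrays between -0.24 and -0.07. Without WT replicates 3 and 4, Nubpl stood at -1.28 (log2). The next 3 genes were picked after their values were seen. The difference of the chaperone gene Hspa9 went from -0.73 to -0.37 and that of the glutaredoxin gene Glrx5 from -0.71 to -0.46. That of the scaffold gene Iscu went from -0.41 to -0.39. None of these 3 passed limma on all arrays (adjusted p = 0.151, 0.145 and 0.196).

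Uptake and transport genes showed no call in limma among 19 measured, with 3 at an unadjusted p under 0.05 and a median of -0.02 (log2). The zinc and iron transporter gene Slc39a8 stood at -1.52 (SE 0.64, adjusted p = 0.260) and at -0.08 without WT replicates 3 and 4. Lcn2, which encodes the siderophore-binding neutrophil protein lipocalin, stood at 1.77 (SE 0.63, adjusted p = 0.197) and at 0.59 without them. None of the genes that act with Tfrc named next passed. The endosomal ferrireductase gene Steap3 stood at 0.02 (adjusted p = 0.970) and at 0.29 without those arrays. The mitochondrial iron importer gene Slc25a37 stood at 0.10 (adjusted p = 0.729) and 0.18, and the transferrin gene Trf at -0.24 (adjusted p = 0.665) and 0.05. Exoc6, which encodes an exocyst subunit that acts in transferrin recycling, stood at 0.39 (SE 0.16, adjusted p = 0.241, unadjusted p = 0.0308 in limma) and at 0.11 without them.

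Storage, sensing and hepcidin genes had a median of 0.21 (log2), with 14 of 17 measured positive, no call in limma and 3 at an unadjusted p under 0.05. Fbxl5, the ubiquitin ligase subunit that degrades the product of Ireb2 when iron is plentiful, stood at 0.36 (SE 0.19, adjusted p = 0.362) and at 0.15 without WT replicates 3 and 4. Zfp36, which encodes tristetraprolin, an mRNA-decay factor that targets the Tfrc message, averaged 11.99 ± 0.40 (log2, SD) in the 4 WT arrays and 12.70 ± 0.23 (SD) in the 5 Ezh2-null arrays (adjusted p = 0.121), a difference of 0.71 that was 0.37 without them. Nfe2l2, a transcription factor that induces ferritin genes, stood at 0.46 (SE 0.18, adjusted p = 0.223) and at 0.57 without them. The hepcidin gene Hamp was dim, at 0.41 (SE 0.42, adjusted p = 0.649) and 0.31.

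**Figure D4:**
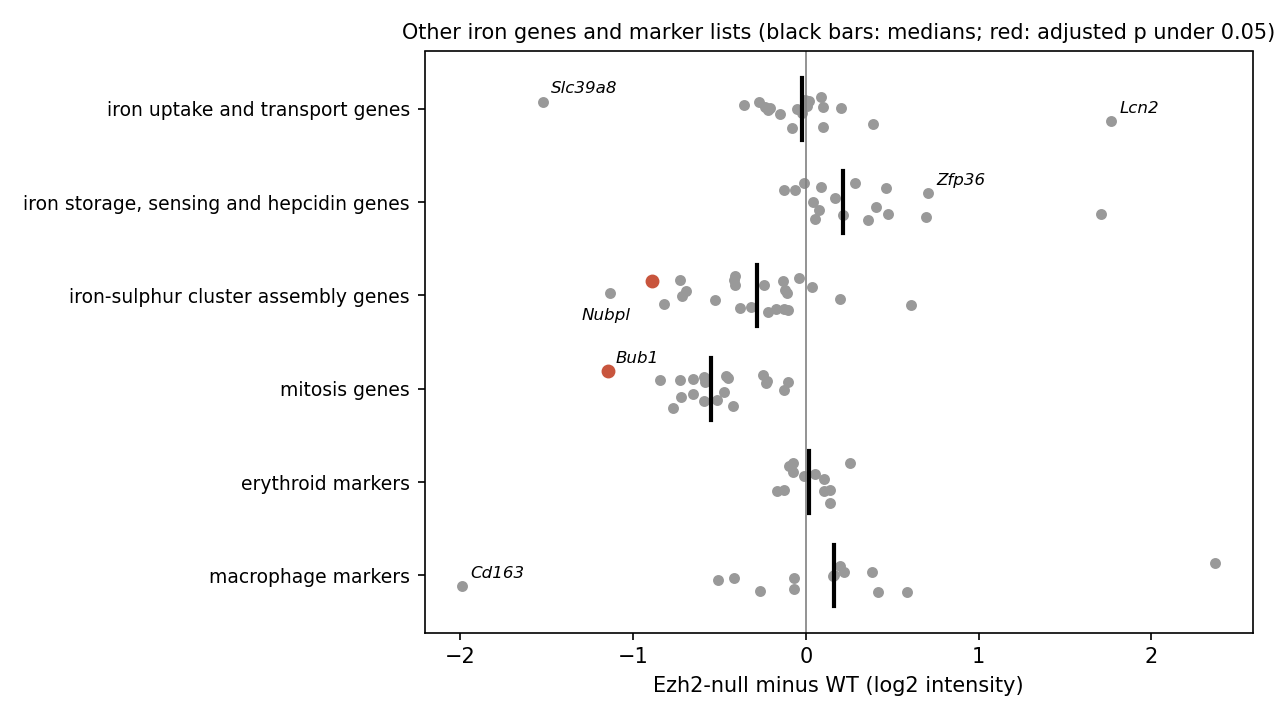
Difference of Ezh2-null minus WT (log2 intensity) for each measured gene of the 3 other iron lists and of the mitosis, erythroid and macrophage lists, with 1 point per gene, black bars for list medians and red for genes that passed limma at an adjusted p under 0.05. Bub1 and 1 iron-sulphur cluster assembly gene are in red, and the medians are -0.28 for iron-sulphur cluster assembly, -0.55 for mitosis and 0.02 for erythroid genes.

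The count of called members moved with single arrays. Of the 8 genes, 3 passed with all arrays, 1 without WT replicate 1, 3 without WT replicate 2 (Aco1 in place of Tfrc), 2 without Ezh2-null replicate 5 and 0 in limma without WT replicate 3 or 4 or Ezh2-null replicate 1, 2, 3 or 4, where 3 or 4 members had an unadjusted p under 0.05. Tfrc as a gene passed in 0 of the 9 fits with an array left out. Among probe sets, its brightest passed neither with all arrays nor in any of the 9, its 5′ and middle controls passed in all 9, and its other 3 probe sets passed in 1 to 4. The brighter probe set of Hfe passed in 2 of the 9, and the brightest probe set of Ciapin1 in none.

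Genes with the most similar profile to a member were sought among 12408 genes in the upper part of the intensity range, as a description over 9 arrays that share processing. For Hfe the highest Pearson correlations were with the cyclin gene Ccnb2 (r = 0.986), Tmco1 (r = 0.977) and Naf1 (r = 0.971). After the genotype means were removed they were with Naf1 (r = 0.974), Gstk1 (r = 0.967) and Ppfia1 (r = 0.958), so the likeness to Naf1 held within genotypes too. For Tfrc they were with Gramd4 (r = 0.944), the kinase gene Csk (r = 0.942) and Lrba (r = 0.941) over the arrays, and with Pld2 (r = 0.961), Aym1 (r = 0.950) and Sh3bp4 (r = 0.945) within genotypes.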

How the data were processed

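Microarray expression was measured in 4 WT and 5 Ezh2-null samples, grouped by their titles. The authors deposited an intensity per probe set, made with RMA per the submitters' processing notes (version not given). That the scale is linear was read from the values. Another deposited table holds intensity values that the file header says were batch-corrected by ComBat with a further series. It gave gene symbols and an alternative. Its 7 other sample columns were not used, and 2 of its values were raised to a floor of 1.

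Of 45101 probe sets, 37831 named a single gene, 13 of them control probe sets. Log2 values entered limma 3.58.1 (R 4.3.3) with genotype as the term and no filter, once per probe set and once for 20680 genes by the probe set with the highest mean, control probe sets left out. Two-sided p-values were Benjamini-Hochberg adjusted over all features, with a threshold of 0.05. SEs are limma's moderated ones.

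Members and lists were chosen with earlier results of these data known. Named were all member probe sets, 8 genes acting directly on members (Ncoa4 had no probe set), and in each list the genes that passed (up to 6), otherwise the 2 with the smallest p; others were chosen after their values were seen. Some list genes are counted but not reported here by name. Similar genes were sought at or above the 40th percentile of mean log2 value. Alternatives were the ComBat table, that percentile as a filter, quantile normalization, median centring, an intensity trend with robust variance, array weights, the mean of probe sets, a replicate block, leaving out arrays, and a threshold of 0.1. Tested on simulated data for the 9 arrays of this comparison and 20680 genes, 70% of 100 genes changed 2-fold and 93% of 100 changed 4-fold were called, and 6.32% of calls were unchanged genes.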

Additional observations from a re-analysis of the deposited data

Results flagged for a closer look

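Of 46 groups of member values (23 probe sets in each genotype), 5 held an array far from the others of its genotype by Dixon's criterion, which chance alone meets in about 1 of 20 groups. For Slc11a2 they were WT replicate 3 at 9.67 against 8.56 to 8.70 on the brightest probe set, WT replicate 1 at 7.40 against 8.57 to 8.78 on the next, and WT replicate 4 at 5.95 against 5.33 to 5.39 on the dimmest (log2 intensity). These 3 of the 4 Slc11a2 probe sets singled out different WT arrays. Ezh2-null replicate 4 read 8.35 on a Tfrc probe set (1422966_a_at) against 7.89 to 7.997 on the other Ezh2-null arrays, and still lay below the lowest WT array at 8.52. WT replicate 1 read 7.82 on a Ciapin1 probe set (1448140_at) against 8.54 to 8.65 in the other WT arrays.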

How the results depend on the processing

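Of the 8 member genes 3 passed. The count was 1 after quantile normalization (Hfe), 1 after median centring (Ciapin1), 1 with the mean of all probe sets (Tfrc), 1 without WT replicates 3 and 4 together (Tfrc), and 0 to 3 with an array left out. The intensity filter over genes removed Hfe and left 7 member genes, of which 2 passed (Ciapin1 and Tfrc). Of the 23 probe sets 6 passed, 3 without WT replicates 3 and 4 together and 2 to 6 with an array left out. Of the 60 other iron genes 1 passed; the count was 2 with the ComBat table, the intensity filter, the mean of probe sets or a threshold of 0.1, 0 after median centring or without WT replicates 3 and 4 together (14 and 6 at an unadjusted p under 0.05 in limma), 7 with array weights, and 0 to 4 with an array left out. The causes were not tested. With the replicate number as a block, on the 8 arrays with a shared number, 0 member genes (3 at an unadjusted p under 0.05), 2 member probe sets and 1 other iron gene (Nubpl) passed in limma; deviations of same-numbered samples correlated at -0.045, 0.086, 0.127 and -0.144, so the numbers were not taken as pairs. No called member changed sign under the alternatives that held it; Tfrc ran from -1.61 to -1.10, Hfe from -2.60 to -1.30 and Ciapin1 from -0.82 to -0.31 (log2). Signal over background was not given, which limits the dim probe sets of Hfe and Aco1.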
